A study of Mus musculus with 4 samples.

Results

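Metallothioneins and the antioxidant genes controlled by the transcription factor Nrf2 were examined in quiescent mouse muscle stem cells that overexpress the chromatin protein Dek. The group holds 10 genes chosen by name: the metallothioneins Mt1 and Mt2; Hmox1, Nqo1, Gclm, Gclc, Txnrd1 and Srxn1, which are textbook Nrf2 targets; the glutathione peroxidase Gpx3; and Nfe2l2, which encodes Nrf2 itself. All 10 were found among the 24328 gene symbols of the deposited table. All 10 also passed the filter on low values, of at least 1 FPKM in at least 2 libraries.

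Metallothioneins are small cysteine-rich proteins that bind zinc and copper, and the zinc sensor Mtf1 switches their genes on through metal response elements. Nrf2 is made continuously and destroyed by Keap1 and Cul3; oxidants and electrophiles interrupt this, and Nrf2 then pairs with a small Maf protein on antioxidant response elements. Its targets make and recycle glutathione and thioredoxin, reduce quinones and break down heme, while Bach1 occupies the same elements as a repressor. Muscle stem cells stay quiescent for long periods, and antioxidant defence is one of the traits studied in them.

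Polyadenylated RNA was sequenced from skeletal muscle stem cells (satellite cells) of 2 groups with 2 libraries each. The DEK group had the genotype Pax7CreERT2/+; H11DEK-EGFP/+ and was 4.5 months old. The YFP group had the genotype Pax7CreERT2/+; ROSA26YFP/+ and was 7 months old. All mice were perfused with paraformaldehyde, so that the cells were fixed before the muscle was digested and sorted. In both groups the Pax7 driver restricts recombination to cells that express Pax7 when the Cre is induced. Age, reporter and transgene locus go with the group and cannot be told apart from Dek. The gate used for sorting, the mice's sex, the induction schedule and how many animals made up a library are not given in the sources used here. The p-values therefore measure the spread between these libraries, which may be technical.

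Dek stood at 3196 and 1639.5 FPKM in the DEK libraries, against 512 and 504 FPKM in the YFP libraries. FPKM is the fragment number scaled by transcript length and by library size, and is the unit inferred for the table. Read depth is unknown because the table gives no counts. The satellite cell marker Pax7 was present in all libraries, at 119 and 184 FPKM in DEK and 106 and 93.9 FPKM in YFP. Of the column total, 5.15% and 5.55% in DEK libraries and 11.8% and 15.7% in YFP libraries belonged to Rn45s, a precursor of ribosomal RNA, which bears on every value scaled to a library total. In such bulk samples fewer cells of a type and less RNA per cell cannot be told apart.

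Of the 10 genes, 1 rose in DEK and 0 fell by limma at an adjusted p under 0.05. The riser was the thioredoxin reductase Txnrd1. Among all 12179 tested genes limma called 7.78%, with 4.57% higher and 3.21% lower in DEK, so the count of 1 in 10 lies near the background. At an unadjusted p under 0.05 limma had 4 of the 10 higher and 2 lower, against 29.1% of all tested genes in either direction. Both DEK values lay above both YFP values for Gpx3, Nqo1, Srxn1 and Txnrd1 (34% of all tested genes) and below both for Gclc and Nfe2l2 (26.9%). The groups overlapped for Mt1, Mt2, Hmox1 and Gclm. Separation in 6 of 10 genes is close to the 60.9% of all tested genes whose groups did not overlap. The exact two-sided permutation test of 2 against 2 libraries cannot give a p below 0.333. The median difference DEK minus YFP was 0.31 on the log2(FPKM + 1) scale for the 10 genes and 0.05 for all tested genes.

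**Figure D1:**
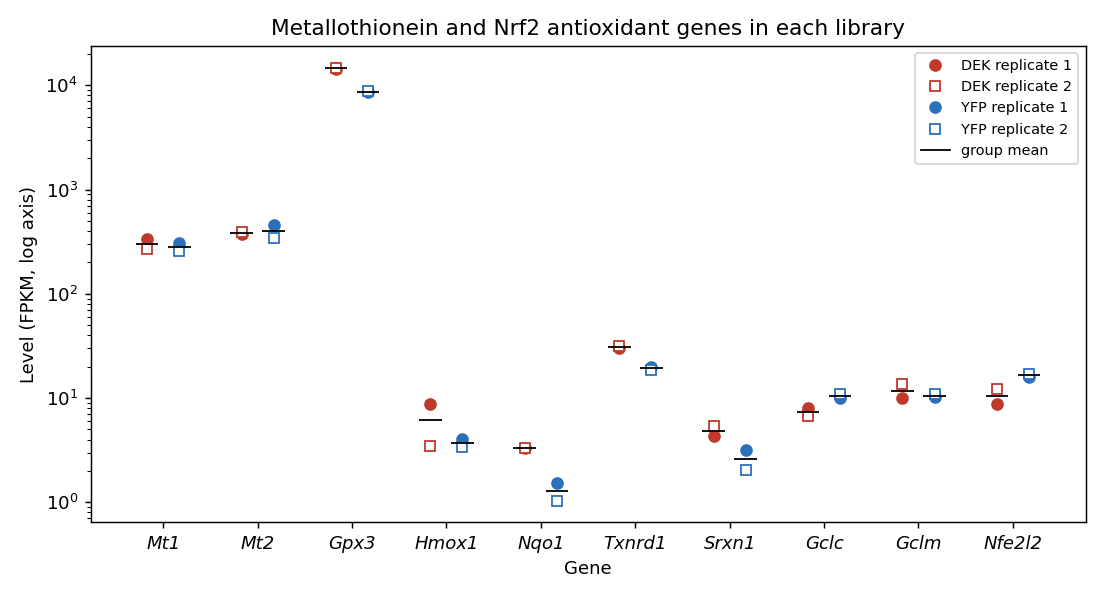
Level of each gene in FPKM on a log axis, with DEK to the left of YFP; circles are replicate 1, squares replicate 2 and bars group means (n = 2 libraries each). Gpx3 lies between 8612 and 14801 FPKM, Mt1 and Mt2 between 258 and 454 FPKM, and Nqo1 is lowest, between 1.04 and 3.31 FPKM.

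The levels, which FPKM scales per length, spanned 4 orders of magnitude and began in the same order in both groups: Gpx3, Mt2, Mt1, then Txnrd1. Neighbours in this upper part of the order did not overlap within a group. In DEK the order went on with Gclm, Nfe2l2, Gclc, Hmox1, Srxn1 and Nqo1. There Gclm overlapped Nfe2l2, Gclc overlapped Hmox1 and Hmox1 overlapped Srxn1. In YFP Nfe2l2 was next after Txnrd1, followed by Gclm and Gclc, which overlapped, and by Hmox1, Srxn1 and Nqo1, which did not overlap.

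The regulator Nfe2l2 was lower in both DEK libraries. It stood at 8.85 and 12.3 FPKM in DEK, against 15.9 and 17.2 FPKM in YFP. The DEK values were the 2 lowest of the 4, and they differed from each other by more than the YFP values did. The difference was -0.61 (SE 0.20) on the log2(FPKM + 1) scale and did not pass limma (adjusted p = 0.113). It was -0.40 without DEK replicate 1 and -0.83 without DEK replicate 2. Textbooks describe Nrf2 as controlled mainly by protein decay, and what the transcript level means for Nrf2 activity was not tested.

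Txnrd1 encodes the cytosolic thioredoxin reductase, a selenoprotein that returns electrons to thioredoxin. It stood at 30.6 and 31.8 FPKM in DEK libraries, against 20.002 and 18.5 FPKM in YFP libraries. Both DEK libraries were close to each other and clear of both YFP libraries. The difference was 0.67 (SE 0.14), which is 1.59-fold (limma 95% interval 1.24 to 2.03, adjusted p = 0.0477). The limma call ended without DEK replicate 1 (adjusted p = 0.200), DEK replicate 2 (0.152), YFP replicate 1 (0.127) or YFP replicate 2 (0.208). It ended in the same 4 cases with the low filter applied again, with Rn45s removed (0.0682), where the difference was 0.54, and in 4 further settings given in the closing section.

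Srxn1 encodes sulfiredoxin, which repairs overoxidised peroxiredoxins. It stood at 4.35 and 5.37 FPKM in DEK, against 3.18 and 2.02 FPKM in YFP. Both DEK values were above both YFP values; on the log2(FPKM + 1) scale the gap between the groups was 0.36, and the YFP libraries lay 0.47 apart. The difference of 0.72 (SE 0.24), or 0.38 with 5 added in place of 1, did not pass limma (adjusted p = 0.121).

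Nqo1 encodes a quinone reductase and is widely used as a readout of Nrf2 activity. It stood at 3.30 and 3.31 FPKM in DEK, against 1.54 and 1.04 FPKM in YFP. The ratio of the group means, 2.56, was the highest of the 10 genes, at low levels. The difference of 0.92 (SE 0.22) on the log2(FPKM + 1) scale depends on the added value, with 1.32 for an added 0.1 and 0.40 for an added 5, and missed the limma threshold (adjusted p = 0.0588). Without the variance trend Nqo1 passed (adjusted p = 0.0451).

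Hmox1 encodes heme oxygenase, which breaks down heme and is also known as a heat shock gene. It stood at 8.75 and 3.46 FPKM in DEK replicates 1 and 2, against 4.09 and 3.37 FPKM in YFP replicates 1 and 2. Only DEK replicate 1 was high, and DEK replicate 2 lay within the YFP range. The difference of 0.48 (SE 0.38) did not pass limma (adjusted p = 0.437), and without DEK replicate 1 it turned to -0.081 (adjusted p = 0.885); without DEK replicate 2 it was 1.05, and with 5 added it was 0.31. Heat shock genes also stood higher in DEK replicate 1 than in DEK replicate 2, in 13 of 14 listed genes. On the log2(FPKM + 1) scale their median distance from the YFP mean was 1.28 for DEK replicate 1, while for DEK replicate 2 it was 0.49. Among the 10 genes described here 3 stood higher in DEK replicate 1 than in DEK replicate 2, namely Hmox1, Mt1 and Gclc. Of 67 other listed redox and metal genes 18 stood higher in DEK replicate 1. The part of the heat shock genes' difference in the Hmox1 values was not tested.

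**Figure D2:**
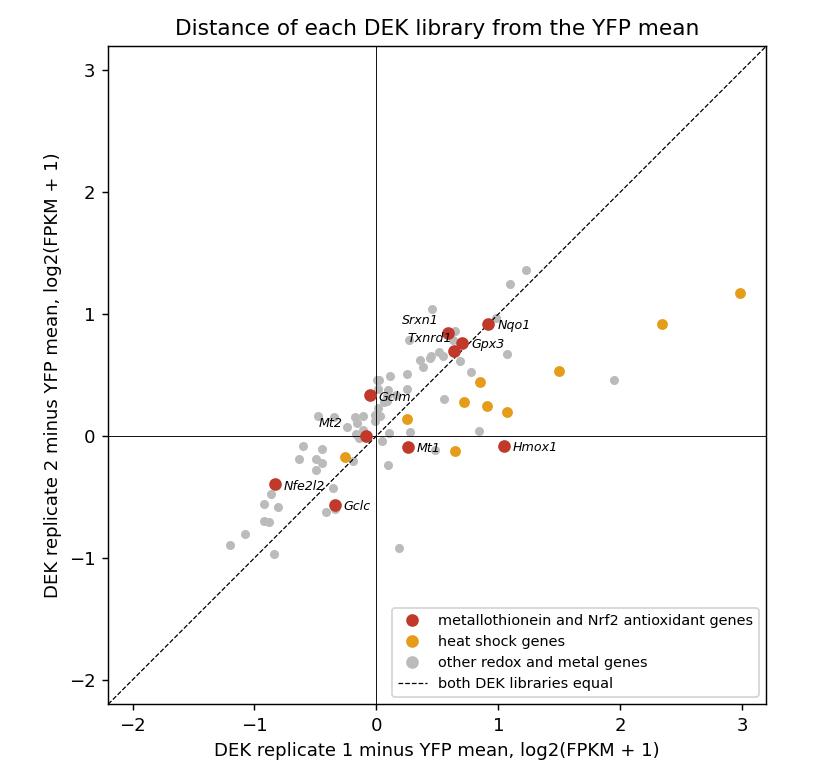
Distance of DEK replicate 1 (horizontal) and DEK replicate 2 (vertical) from the YFP mean in log2(FPKM + 1), for the 10 genes, listed heat shock genes and other listed redox and metal genes; 4 heat shock genes lie outside the axes (Hspa1a, Hspa1b, Dnajb1 and Hspb1). Hmox1 lies at 1.05 and -0.081, to the right of the dashed line of equal distance, while Txnrd1, Gpx3 and Nqo1 lie near that line.

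Gclc and Gclm encode the catalytic and the modifier subunit of glutamate-cysteine ligase, the first enzyme of glutathione synthesis. Gclc stood at 8.02 and 6.74 FPKM in DEK, against 10.04 and 10.8 FPKM in YFP. Both DEK values were below both YFP values. The difference of -0.45 (SE 0.18) did not pass limma (adjusted p = 0.163). Gclm stood at 10.1 and 13.5 FPKM in DEK, against 10.2 and 10.8 FPKM in YFP. DEK replicate 2 was the highest and DEK replicate 1 the lowest of the 4, so the groups overlapped. The difference of 0.14 (SE 0.20) did not pass limma (adjusted p = 0.674). Its 95% interval ran from 0.789-fold to 1.54-fold, so changes of that size are not excluded. The ratio of Gclc to Gclm was 0.797 and 0.4995 in DEK libraries, against 0.989 and 1.0001 in YFP libraries. This ratio was not tested. Exons of Gclm overlap the opposite-strand transcript Gm17494 and the same-strand pseudogene Gm6061 in GENCODE vM21, and the authors' counting is not stated to use strand, so the Gclm values are uncertain to that extent.

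Promoter sequence is shown for Txnrd1, Srxn1 and Gclm, the 3 textbook Nrf2 targets of the group whose windows held a match to a motif searched. Windows of 250 bases before the RefSeq start (GRCm38.p6) were searched on both strands, and 8 of the 10 genes matched the promoter table; Hmox1 and Gclc did not. The motifs were the antioxidant response element core TGACNNNGC, the metal response element core TGCGCNC or TGCACNC, the AP-1 site TGAGTCA or TGACTCA, which can lie inside an antioxidant response element, and the heat shock element GAANNTTC. Capitals mark the matches, here and in the sequences of the metallothioneins. Txnrd1 is shown at the second of 3 annotated starts, the only one of them with a match, chr10:82858956-82859205, plus strand. The window of Srxn1 is chr2:152105274-152105523, plus strand, and that of Gclm is chr3:122245307-122245556, plus strand.
Txnrd1: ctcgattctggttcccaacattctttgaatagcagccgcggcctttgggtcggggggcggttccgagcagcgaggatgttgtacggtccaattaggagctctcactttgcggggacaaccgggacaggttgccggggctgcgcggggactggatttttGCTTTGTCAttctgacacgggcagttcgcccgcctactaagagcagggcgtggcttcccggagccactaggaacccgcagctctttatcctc
Srxn1: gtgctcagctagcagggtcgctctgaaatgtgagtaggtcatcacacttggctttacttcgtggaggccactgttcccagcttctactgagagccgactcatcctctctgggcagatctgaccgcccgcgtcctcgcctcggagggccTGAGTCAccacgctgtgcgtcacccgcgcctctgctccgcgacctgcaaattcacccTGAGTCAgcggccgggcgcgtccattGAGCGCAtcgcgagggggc
Gclm: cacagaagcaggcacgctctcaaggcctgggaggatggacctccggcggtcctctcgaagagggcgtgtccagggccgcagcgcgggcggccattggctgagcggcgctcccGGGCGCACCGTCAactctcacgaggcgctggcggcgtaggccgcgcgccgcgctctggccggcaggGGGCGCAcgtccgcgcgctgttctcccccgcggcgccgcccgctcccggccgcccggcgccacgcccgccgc
In Txnrd1 the capitals are an antioxidant response element core, at bases -92 to -84 counted from the start. In Srxn1 they are AP-1 sites at -102 to -96 and at -45 to -39 and a metal response element core at -19 to -13. In Gclm an antioxidant response element core at -134 to -126 shares bases with a metal response element core at -138 to -132, and another metal response element core lies at -72 to -66. Nfe2l2 held an antioxidant response element core at -240 to -232, and none of the 4 motifs was matched in the windows of Nqo1 and Gpx3. The antioxidant response element core was matched in 4 of the 10 windows of these 8 genes, of which Txnrd1 has 3, and in 10.2% of all 32851 promoter windows of this length. A match describes letters only and was not tested against the expression values. A missing match does not exclude an element with other letters, farther from the start or after it.

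Gpx3 encodes the secreted, selenium-containing glutathione peroxidase of plasma. It stood at 14215 and 14801 FPKM in DEK, against 8612 and 8818 FPKM in YFP. It held the third highest value of the table in every library. It took 2.61% and 2.72% of the column total in DEK libraries and 1.59% and 1.63% in YFP libraries. The groups were far apart compared with the spread within each, yet the difference of 0.74 (SE 0.22, 1.66-fold) did not pass limma (adjusted p = 0.0945). That SE depends on the variance trend fitted over all genes. Without the trend the SE was 0.16 (limma adjusted p = 0.0533). The limma call appeared with robust variance estimation (0.0260), where the SE was 0.13. It also appeared with either DEK library left out and the low filter applied again, in fits that hold only 1 DEK library. It was absent with the replicate block (adjusted p = 0.205, SE 0.31) and with no low filter (0.641, SE 0.84). With 1 library left out the difference ran from 0.71 to 0.76. With Rn45s removed the difference was 0.60 (adjusted p = 0.134).

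The metallothioneins were abundant in every library and did not separate the groups. Mt1 stood at 339 and 267 FPKM in DEK, against 310.2 and 258 FPKM in YFP. Mt2 stood at 372 and 396 FPKM in DEK, against 454 and 343 FPKM in YFP. For both genes the values of the 2 groups overlapped. The Mt1 difference was 0.087 (SE 0.18, limma adjusted p = 0.782), which turned to -0.015 after quantile normalization and to -0.047 with Rn45s removed. The Mt2 difference was -0.042 (SE 0.18, limma adjusted p = 0.895). The 95% intervals ran from 0.783-fold to 1.44-fold for Mt1 and from 0.719-fold to 1.31-fold for Mt2, so changes within those bounds are not excluded. Their sum was 711 and 662 FPKM in DEK and 764 and 602 FPKM in YFP. Mt2 was above Mt1 in all 4 libraries, by 1.10 and 1.48 times in DEK and 1.46 and 1.33 times in YFP.

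The 2 genes are neighbours on mouse chromosome 8, with 5514 bases between them in GENCODE vM21 (GRCm38). Their main transcripts share no run longer than 20 bases, while the reads were 75 bases long. Exons of Mt2 overlap the opposite-strand transcript Gm45774, so the Mt2 values may include it. Their promoter windows are shown because both carry metal response element cores; Mt1 is at chr8:94178839-94179088 and Mt2 at chr8:94172368-94172617, both on the plus strand.
Mt1: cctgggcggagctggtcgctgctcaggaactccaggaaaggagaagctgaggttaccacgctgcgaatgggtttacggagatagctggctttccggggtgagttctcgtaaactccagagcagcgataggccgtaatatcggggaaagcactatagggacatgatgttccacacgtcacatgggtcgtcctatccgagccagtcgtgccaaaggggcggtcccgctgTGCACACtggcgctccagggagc
Mt2: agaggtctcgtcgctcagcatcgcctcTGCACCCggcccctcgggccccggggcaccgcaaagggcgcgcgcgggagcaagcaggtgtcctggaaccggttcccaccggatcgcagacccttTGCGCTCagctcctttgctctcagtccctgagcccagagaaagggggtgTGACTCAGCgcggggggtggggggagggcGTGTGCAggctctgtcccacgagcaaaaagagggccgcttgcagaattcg
In Mt1 the capitals are a metal response element core at -23 to -17. Bases after this annotated start were not searched, so further cores there are not excluded. In Mt2 they are metal response element cores at -223 to -217, -128 to -122 and -50 to -44, and an antioxidant response element core at -79 to -71 that contains an AP-1 site at -79 to -73. These Mt2 positions count from the RefSeq start, which lies 46 bases upstream of the GENCODE vM21 start. The metal response element core was matched in 4 of the 10 windows (Mt1, Mt2, Gclm and Srxn1) and in 21.4% of all promoter windows, the AP-1 site in 2 of 10 and 4.46%, and the heat shock element in 0 of 10 and 6.69%.

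**Figure D3:**
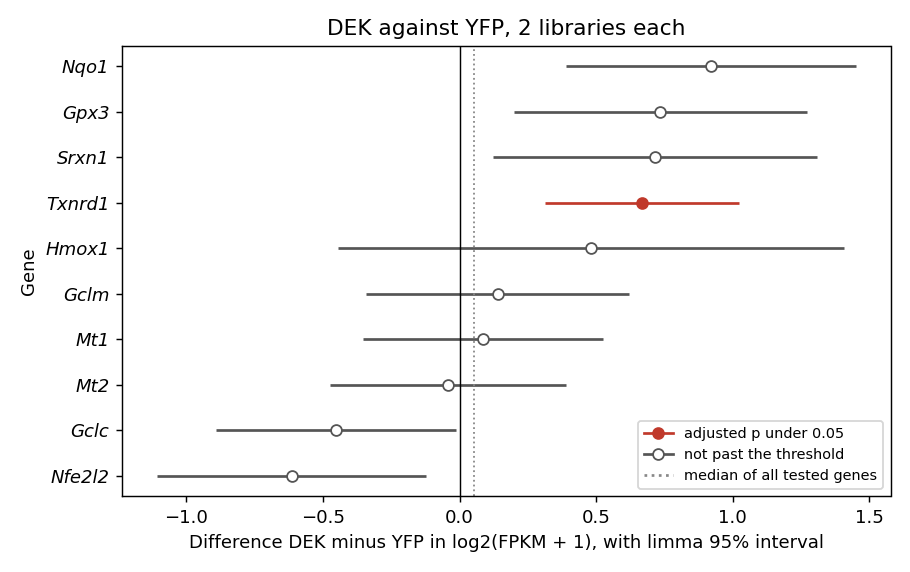
Difference DEK minus YFP in log2(FPKM + 1) with its limma 95% interval for each gene (n = 2 libraries each); the dotted line is the median of all tested genes. The estimates run from -0.61 for Nfe2l2 to 0.92 for Nqo1, and the filled point is Txnrd1, which passed the threshold.

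The genes of the wider pathway moved in both directions. Across 6 lists of redox and metal genes, which exclude the 10 genes above, 67 genes were tested, and 4 rose and 4 fell by limma. That is 5.97% in each direction, against 4.57% higher and 3.21% lower of all tested genes. Their median difference was 0.095, against 0.05 for all tested genes.

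Among 9 tested Nrf2 regulators 1 rose and 1 fell. Mafk, a small Maf partner of Nrf2, stood at 151 and 114 FPKM in DEK, against 76.5 and 66.2 FPKM in YFP (difference 0.87, limma adjusted p = 0.0439). Bach2, a relative of the repressor Bach1, stood at 23.3 and 27.4 FPKM in DEK, against 40.3 and 50.3 FPKM in YFP (-0.81, limma adjusted p = 0.0477). The inhibitor Keap1 stood at 53.4 and 58.6 FPKM in DEK and 46.4 and 43.0 FPKM in YFP (0.32), and Bach1 at 5.42 and 7.38 FPKM in DEK and 11.5 and 9.91 FPKM in YFP (-0.67). Neither passed limma (adjusted p = 0.194 for Keap1 and 0.103 for Bach1); both are named for their place in the pathway, chosen after their values were seen.

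Among 15 tested glutathione genes 1 rose and 2 fell. The microsomal glutathione S-transferase Mgst3 rose, with 13.3 and 13.1 FPKM in DEK, against 6.94 and 5.55 FPKM in YFP (0.98, limma adjusted p = 0.0363). The related Mgst1 fell, with 129.97 and 119 FPKM in DEK, against 233 and 235 FPKM in YFP (-0.91, limma adjusted p = 0.0199). The glutaredoxin Glrx fell at low level, with 0.662 and 1.06 FPKM in DEK, against 2.94 and 2.71 FPKM in YFP (-1.05, limma adjusted p = 0.0453). Among 13 thioredoxin and peroxiredoxin genes limma called 0 higher and 1 lower. At an unadjusted p under 0.05 it had 4 higher and 2 lower, against 29.1% of all tested genes in either direction. The peroxiredoxin Prdx6 stood at 17.3 and 21.2 FPKM in DEK, against 39.3 and 36.2 FPKM in YFP (-0.94, limma adjusted p = 0.0306).

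Among 15 other Nrf2 targets limma called 2 higher and 0 lower, with 5 higher and 0 lower at an unadjusted p under 0.05. Of all tested genes 29.1% had an unadjusted limma p under 0.05, in either direction. Osgin1, an oxidative stress-induced growth inhibitor, stood at 27.0 and 29.8 FPKM in DEK, against 10.5 and 11.4 FPKM in YFP (1.29, limma adjusted p = 0.0121). The epoxide hydrolase Ephx1 stood at 295 and 279 FPKM in DEK, against 182 and 183 FPKM in YFP (0.65, limma adjusted p = 0.0401). None of 4 superoxide and peroxide enzymes passed limma; catalase (Cat), the 1 gene of these at an unadjusted p under 0.05, had a difference of -0.39 (adjusted p = 0.151). None of 11 metal handling genes passed limma, with 3 higher and 1 lower at an unadjusted p under 0.05; the zinc importer Slc39a10 had the smallest p, with a difference of 0.71 (adjusted p = 0.0828). The zinc sensor Mtf1 stood at 9.98 and 7.70 FPKM in DEK and 9.61 and 8.95 FPKM in YFP, and the zinc exporter Slc30a1, a textbook Mtf1 target, at 1.51 and 1.37 FPKM in DEK and 1.80 and 1.11 FPKM in YFP. For both, chosen after their values were seen, the groups overlapped. Mt3 was below 1 FPKM in all 4 libraries and Mt4 was listed at 0 in all 4.

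**Figure D4:**
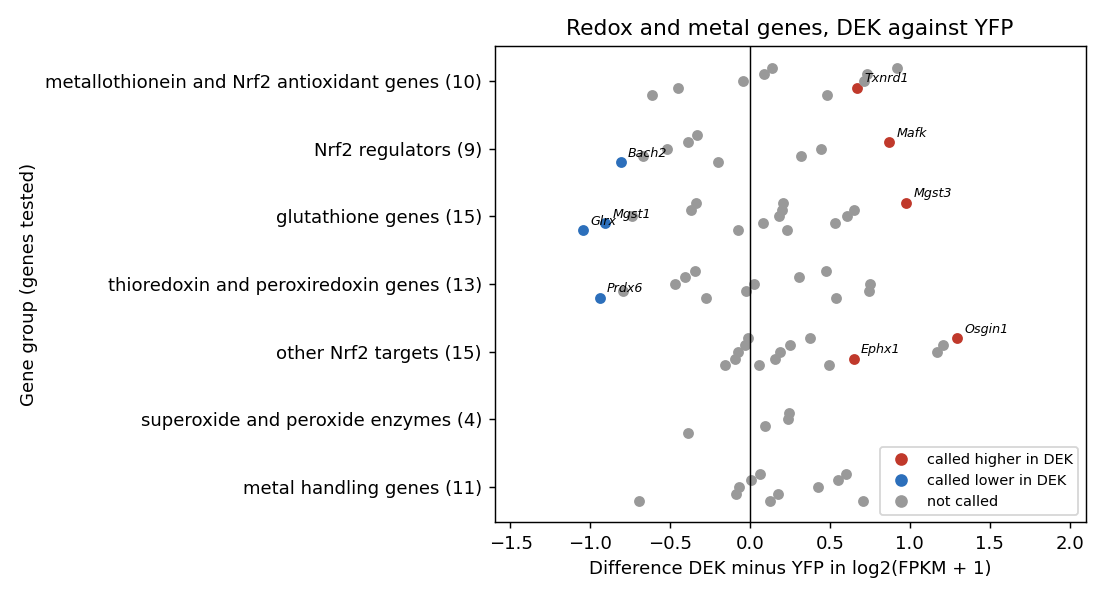
Difference DEK minus YFP in log2(FPKM + 1) for each tested gene, by group, with the number tested in parentheses; the vertical scatter within a row only separates points. Calls in each direction are named: Txnrd1, Mafk, Mgst3, Ephx1 and Osgin1 are higher in DEK, and Bach2, Glrx, Mgst1 and Prdx6 are lower.

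Heat shock and glucocorticoid-induced genes were listed because Hmox1 is also a heat shock gene and metallothioneins are also glucocorticoid targets. Of 14 heat shock genes limma called 3 higher and 0 lower, with a median difference of 0.83. At an unadjusted p under 0.05 it had 10 higher and 0 lower, against 29.1% of all tested genes in either direction. The chaperone Hspa1a stood at 3419 and 654 FPKM in DEK, against 4.91 and 3.41 FPKM in YFP. The near-identical Hspa1b, with which it may share reads, and the small chaperone Hspb1 were the others called (7.21 and 3.88). Of 12 glucocorticoid-induced genes 1 rose and 4 fell by limma, with a median difference of -0.52. Fkbp5, a co-chaperone of the glucocorticoid receptor, stood at 12.04 and 14.1 FPKM in DEK, against 76.2 and 96.7 FPKM in YFP (-2.63, limma adjusted p = 0.00353). The values of Mt1 and Mt2 overlapped between groups in the same libraries. Any part of the glucocorticoid-induced genes' difference in the Mt1 and Mt2 values was not tested. Tsc22d3, Zbtb16 and Klf15 also fell (-1.87, -1.62 and -0.94), and Errfi1 rose (1.301). Over all 8 lists limma called 8 of 93 genes higher and 8 lower, 8.6% each, against 4.57% and 3.21% of all tested genes. Without DEK replicate 1, DEK replicate 2, YFP replicate 1 and YFP replicate 2 the calls were 0, 9, 0 and 0 higher and 0, 3, 1 and 1 lower, and at an unadjusted p under 0.05 limma had 26, 25, 17 and 13 higher and 11, 15, 13 and 12 lower.

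Sums of macrophage, endothelial, erythroid and Schwann markers were higher in both DEK libraries than in both YFP libraries. Those of the other marker lists overlapped between the groups. Among all tested genes limma called 4.57% higher and 3.21% lower in DEK. The summed level of 12 macrophage markers was 101 and 128 FPKM in DEK, against 2.29 and 18.6 FPKM in YFP. Of 8 tested members 5 rose by limma, and Adgre1, C1qa, C1qb, C1qc and Tyrobp were listed at 0 in both YFP libraries. The sum of 12 endothelial markers was 165 and 140 FPKM in DEK, against 69.1 and 62.0 FPKM in YFP; 9 of 11 tested members rose, and Kdr, Flt1 and Robo4 were listed at 0 in both YFP libraries. The sum of 9 erythroid markers was 39.4 and 357 FPKM in DEK, against 8.04 and 0.527 FPKM in YFP. Of 5 tested erythroid markers 2 rose. The macrophage and erythroid sums were highest in DEK replicate 2. Of 9 fibro-adipogenic progenitor markers 5 rose and 2 fell, with sums of 1334 and 1413 FPKM in DEK and 1377 and 1139 FPKM in YFP. Of 8 pericyte and smooth muscle markers 2 rose, with sums of 613 and 904 FPKM in DEK and 736 and 757 FPKM in YFP. The 6 Schwann markers summed to 31.7 and 24.5 FPKM in DEK and 13.4 and 8.79 FPKM in YFP, and 2 of 4 tested rose. The 9 myofibre markers summed to 110 and 63.3 FPKM in DEK and 102 and 88.7 FPKM in YFP. Of 5 tested myofibre markers 0 passed limma (2 higher and 1 lower at an unadjusted p under 0.05). Of 10 satellite cell markers 1 rose, with sums of 1863 and 2478 FPKM in DEK and 1904 and 1806 FPKM in YFP. The part of these markers in the values of the 10 genes was not tested.

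The genes whose 4 values were most like those of Mt1, Mt2 and Hmox1 were found by the distance between centred log2(FPKM + 1) values over the 4 libraries, among 8604 genes with a mean of at least 5 FPKM. For Mt1 these were 3110043O21Rik, Pot1b and Irak3, at distances of 0.018, 0.055 and 0.057. For Mt2 they were Lsm1, Tsta3 and Eapp, each at 0.025 or 0.026. For Hmox1 they were Snhg3, 1810011O10Rik and Jmjd6, at 0.149, 0.153 and 0.155. All 3 neighbours of Hmox1 were highest in DEK replicate 1; Jmjd6, for example, stood at 77.3 and 39.7 FPKM in DEK replicates 1 and 2, against 39.7 and 36.1 FPKM in YFP replicates 1 and 2. With 4 libraries many genes share such a pattern, and nothing about function follows from it.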

How the data were processed

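The submitters' processing notes list the aligner STAR (2.5.3a), the assembler StringTie (1.3.3), R (3.4.1) and mouse build mm9; they give no settings, annotation or filters. Each symbol has 1 deposited value in each of the 4 libraries. These values were taken to be FPKM computed by the authors, a unit inferred from the values because neither header nor labels name it; they could also be TPM. Here limma 3.58.1 (R 4.3.3) was run on log2(FPKM + 1) with a variance trend and no covariates, two-sided, over the 12179 of 24328 symbols that reached 1 FPKM in 2 or more libraries. P-values were adjusted by Benjamini-Hochberg over all of these, and calls made at an adjusted p under 0.05. The test was checked on simulated data whose known changes were larger than the difference of any of the 10 genes. That check does not cover differences of their size. The added 1 makes differences of low genes too small. TMM factors were computed on the values, with trims of 30 and 5%. Sequences are from RefSeq (GRCm38.p6), and no coordinates were joined to the mm9 values.

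The 10 genes and all lists were chosen with earlier results of these data known. Named are the 10 genes; Dek; in each pathway list the called genes, up to 4 by smallest p, or else the gene with the smallest p; of marker lists, sums and members at 0; and 3 nearest genes each for Mt1, Mt2 and Hmox1. Genes named outside this rule are Pax7, Rn45s, Keap1, Bach1, Mtf1, Slc30a1, Mt3, Mt4, Dnajb1 and Klf15. Alternatives were single libraries left out (with the same genes or with the filter applied again), the replicate number as a block, other added values, filters, scalings and variance models, and a looser threshold.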

Additional observations from a re-analysis of the deposited data

How the results depend on the processing

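Differences of Nqo1, Txnrd1, Srxn1, Gclc and Nfe2l2 kept their sign in all alternatives run. That of Gpx3 kept it except under quantile normalization, where it was 0, because Gpx3 has the same rank in every library and that method gives equal ranks equal values. With 1 library left out, Mt1 ran from -0.086 to 0.26 (-0.045 without YFP replicate 2), Mt2 from -0.24 to 0.16 (0.0025 without DEK replicate 1), Hmox1 from -0.081 to 1.05 and Gclm from -0.055 to 0.34; Mt1 was -0.015 after quantile normalization and -0.047 with Rn45s removed. Limma called 0 of the 10 genes higher with each library left out (2 to 5 in either direction at an unadjusted p under 0.05), with the replicate block, with an added 0.1, with no low filter and with Rn45s removed, 2 with robust estimation and 3 at an adjusted p under 0.1. With the filter applied again and 1 library left out it called 0 to 1. None was called lower in any setting. The adjusted p of Txnrd1 was 0.0838 with the replicate block, 0.0537 with an added 0.1, 0.0748 with no low filter and 0.0681 without the variance trend, in a range over all alternatives of 0.0426 to 0.208. With 5 FPKM in 2 libraries 7 of the 10 were tested, 4 of them above 0. Over the 8 lists the calls higher were 0 to 9 with 1 library left out, 0 to 18 with the filter applied again, 4 with no low filter and 20 at an adjusted p under 0.1; those lower were 0 to 3, 1 to 8, 3 with no low filter and 4 with the replicate block. Over all genes 948 were called, and 0 to 184 with 1 library left out (2215 to 3018 at an unadjusted p under 0.05). With the filter applied again they were 302, 780, 168 and 83 without DEK replicate 1, DEK replicate 2, YFP replicate 1 and YFP replicate 2. They were 618 with the replicate block, 293 with no low filter and 2096 at an adjusted p under 0.1. Except where stated, the cause was not tested. Of all calls 58.8% were higher, or 45.4% after quantile normalization; removing Rn45s gave 43.5% and put the median difference of all genes at -0.067 in place of 0.051. Replicate numbers are not stated to pair libraries: the correlation over genes of replicate 1 minus replicate 2 between DEK and YFP was 0.063, so no pairing is assumed. A motif was matched in a window of 6 of the 8 genes, and of 5 within 100 bases. With no counts, the depth behind low genes such as Nqo1, Srxn1 and Hmox1 is unknown.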
